A study of Mus musculus with 6 samples.

Results

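Expression of 34 extracellular matrix and stellate cell genes was measured by RNA-Seq in the liver of 3 laboratory and 3 wild house mice. The genes were taken by symbol: the chains of collagens I, III, IV, V, VI, XIV, XV and XVIII, matrix proteoglycans and glycoproteins, enzymes that cut or crosslink matrix and their inhibitors, contractile and intermediate filament proteins, and markers or receptors of hepatic stellate cells. All 34 were listed once in every mouse among 47232 usable gene names, none was listed at 0 in any mouse, and all 34 were among the 18619 genes tested. The 3 laboratory mice were inbred C57BL/6 males, adult, from a supplier and killed on arrival. The 3 wild mice were outbred adults, live-trapped and then housed for some months: wild mouse 1 was male, wild mice 2 and 3 were female, and wild mouse 3 came from another trapping site than wild mice 1 and 2. The labels name no treatment and no engineered allele in either group, and the frozen liver used for RNA had not been fixed. With 1 wild male, sex and origin cannot be told apart beyond a comparison that rests on that mouse, and housing before death also differed between the groups.

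Hepatic stellate cells lie in the space between the sinusoidal endothelium and the hepatocytes, where they store retinoids as esters. When activated they become myofibroblast-like cells that contract and deposit fibrillar collagen, which makes them a main source of scar matrix in the liver. The matrix of healthy liver is sparse: fibrillar collagens lie mostly around portal tracts and central veins, basement membrane chains and fibronectin occur along the sinusoids, and small leucine-rich proteoglycans bind to collagen fibrils.

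Transcripts of 2 fibrillar collagen chains and of fibronectin changed in opposite directions. Relative to wild mice, laboratory mice had higher Col1a1 and Col3a1, chains of the main fibrillar collagens, with 3.04 and 2.17 times the mean FPKM, and lower Fn1, fibronectin, which stood 8.10 times higher in the wild mice. These 3 of the 34 genes (8.82%) passed an adjusted p of 0.05, against 14.4% of all genes tested. Higher calls numbered 2 (5.88% of the genes, against 7.17% of all tested) and lower calls 1 (2.94%, against 7.28%), so neither share of calls was above that of all genes. At an unadjusted p under 0.05 there were 5 genes, the others being Dcn and Eln. The share of all tested genes at this unadjusted threshold was not counted. It cannot be under the 14.4% that passed after adjustment. The unadjusted counts given below also lack such a share, so none of them shows an excess. The laboratory minus wild differences in zFPKM ran from -0.78 to 0.83 with 16 above 0 and 18 below, and their median was -0.03, beside 0.0050 for all tested genes.

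**Figure D1:**
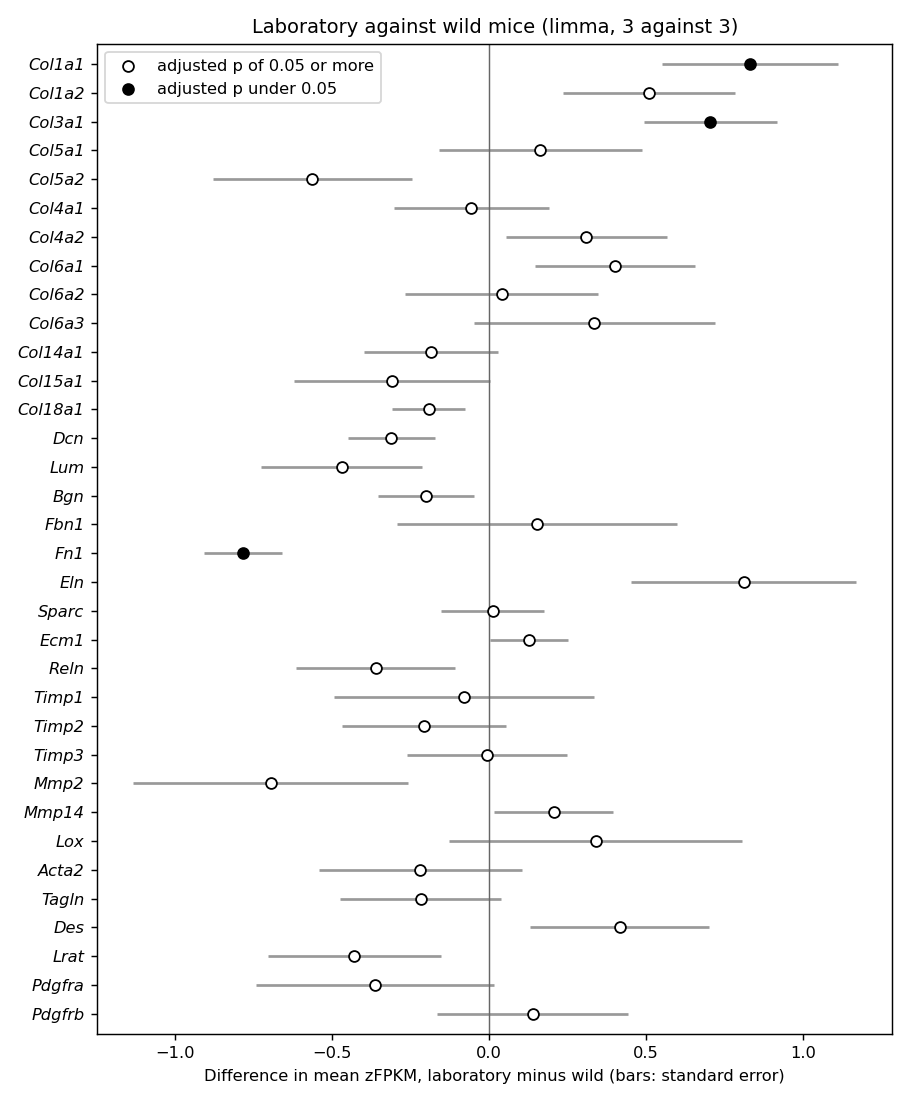
Difference in mean zFPKM (laboratory minus wild, horizontal axis) for each of the 34 genes, with bars of 1 standard error from limma (3 mice against 3). Filled points mark the 3 genes with an adjusted p under 0.05: Col1a1 (0.83) and Col3a1 (0.70) lie to the right of 0 and Fn1 (-0.78) to the left.

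Here FPKM, the number of fragments scaled to transcript length and library size, is the level of a gene, and zFPKM is log2 FPKM after subtracting the mode and dividing by the SD of the mouse's own distribution of genes. The modes ran from 0.491 to 2.51 log2 FPKM and the SDs from 2.51 to 3.12 over the 6 mice, so the scale touches every comparison. The test was limma on zFPKM with Benjamini-Hochberg adjustment over all tested genes. Its estimate of the prior degrees of freedom was infinite, so that each standard error is the spread typical of all genes at that level and not the gene's own spread over 3 mice. On log2(FPKM + 0.1) the median difference of all tested genes was -0.47, that is, towards higher values in wild mice, and that of the 34 genes was -0.72.

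The number of genes called changed with the scale. On log2(FPKM + 0.1) limma called 2 genes higher in laboratory mice, Col1a1 and Eln (5.88%, against 8.19% of all tested genes), and 12 lower (35.3%, against 37.9%): Col5a2, Col18a1, Dcn, Lum, Bgn, Fn1, Reln, Timp2, Mmp2, Tagln, Lrat and Pdgfra. After quantile normalization of zFPKM it called 8 higher (23.5%, against 18.7%), namely Col1a1, Col1a2, Col3a1, Col4a2, Col6a1, Eln, Mmp14 and Des, and 6 lower (17.6%, against 20.4%), namely Dcn, Lum, Fn1, Reln, Mmp2 and Pdgfra. Col1a1 and Fn1 passed on all 3 scales and in the same direction. From scale to scale the share of the 34 genes called moved with the share of all tested genes.

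**Figure D2:**
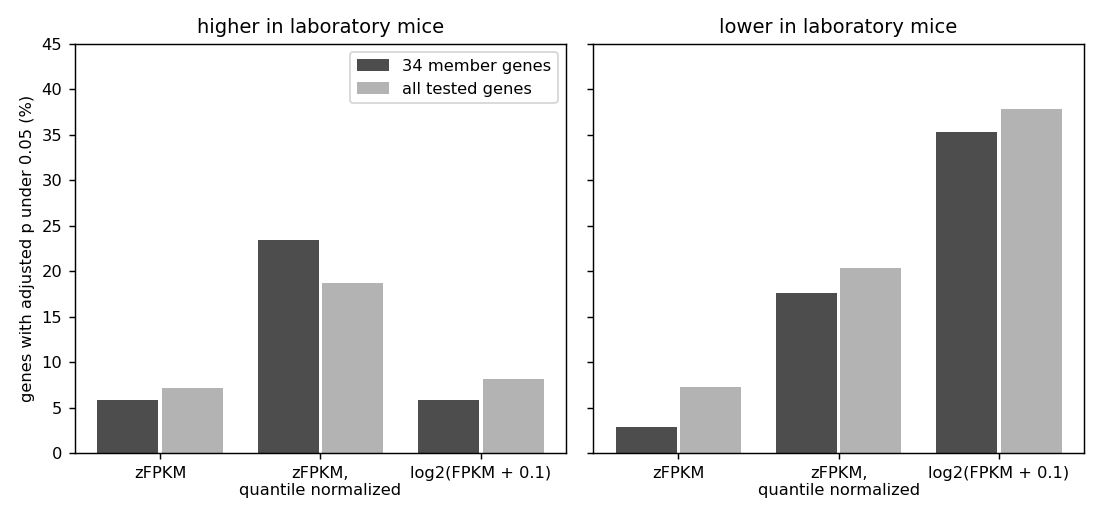
Percentage of genes with an adjusted p under 0.05 (vertical axis) among the 34 genes (dark bars) and among all 18619 tested genes (light bars), for genes higher (left) and lower (right) in laboratory mice on 3 scales. Lower calls among the 34 genes went from 2.94% on zFPKM to 35.3% on log2(FPKM + 0.1), and the light bars moved alongside, from 7.28% to 37.9%.

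Levels that did not overlap between the 3 laboratory and 3 wild mice were counted as well, with no test. In FPKM, 3 genes lay above all wild mice in every laboratory mouse (8.82%, against 12.1% of all tested genes), Col1a1, Col3a1 and Eln, and 14 lay below (41.2%, against 43.7%). In zFPKM the same 3 lay above (8.82%, against 14.2%) and 3 lay below, Lum, Fn1 and Mmp2 (8.82%, against 14.1%). The rank of a gene's FPKM within its mouse does not depend on how mice are scaled to each other, and by rank among the 18619 tested genes, a measure chosen after the data were seen, 8 genes stood higher in every laboratory mouse (23.5%, against 25.4%) and 8 lower (23.5%, against 27.3%). The 8 with the higher rank in laboratory mice were Col1a1, Col1a2, Col3a1, Col4a2, Col6a1, Eln, Mmp14 and Des, and the 8 with the lower rank were Dcn, Lum, Fn1, Reln, Mmp2, Tagln, Lrat and Pdgfra.

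Levels differed widely among the 34 genes. Col18a1 had the highest mean FPKM of the 34 genes in laboratory mice, 95.6 ± 24.8 (SD, n = 3), followed by Ecm1 with 79.3 ± 4.93 and Fn1 with 32.6 ± 4.74, and the spreads of Col18a1 and Ecm1 overlapped. In wild mice Fn1 came highest with 264 ± 54.8 FPKM, then Col18a1 with 238 ± 46.6, within each other's spread, and Ecm1 with 107 ± 33.0. In both groups 6 genes had a mean FPKM of at least 10: Col18a1, Ecm1, Fn1, Dcn, Bgn and Sparc. The 5 genes with mean FPKM under 1 in both groups were Col6a3, Fbn1, Timp1, Mmp2 and Lox.

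**Figure D3:**
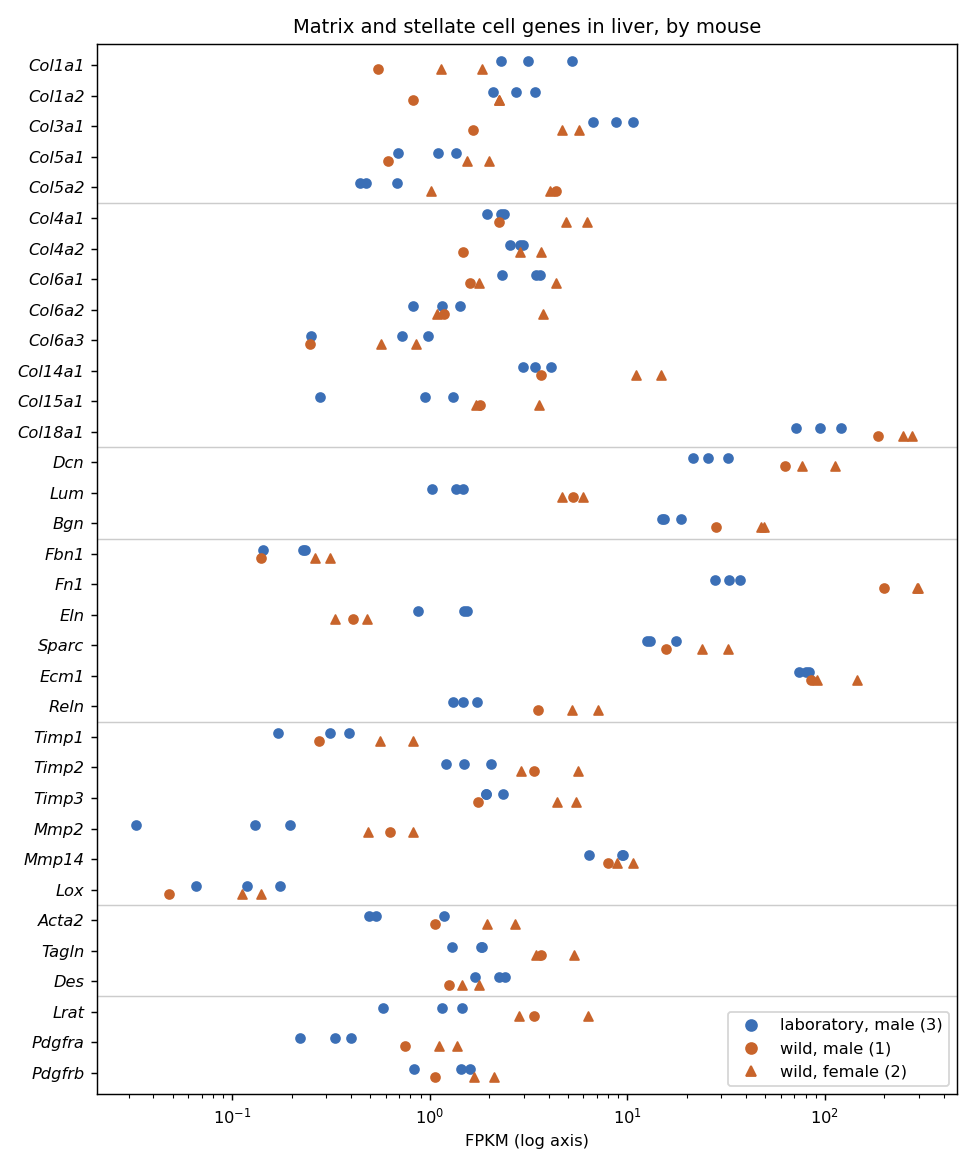
FPKM in each mouse (horizontal log axis) for the 34 genes, in blocks by role, with laboratory mice in blue, wild mice in orange, circles for males and triangles for females. The orange points of Fn1 (201 to 298 FPKM) lie far to the right of the blue points (27.8 to 37.3 FPKM), whereas the blue points of Col1a1, Col3a1 and Eln lie to the right of the orange points.

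Among the fibrillar collagens, 2 of 5 genes were called higher in laboratory mice and none lower, beside 7.17% and 7.28% of all tested genes. Col1a1, which encodes the alpha1 chain of collagen I (chr11:94936224-94953042, GRCm38.p6), had 2.29, 5.28 and 3.16 FPKM in laboratory mice 1, 2 and 3, and 0.545, 1.14 and 1.85 FPKM in wild mice 1, 2 and 3. Every laboratory mouse lay above every wild mouse, and wild mouse 1 was lowest. The difference in zFPKM was 0.83 (SE 0.281, adjusted p = 0.0261, limma). Col3a1, the only chain of collagen III (chr1:45311538-45349706), had 6.72, 10.7 and 8.82 FPKM in laboratory mice and 1.66, 5.70 and 4.70 FPKM in wild mice, again with no overlap and with wild mouse 1 lowest. Its difference in zFPKM was 0.70 (SE 0.212, adjusted p = 0.0103, limma). On the rank scale Col3a1 stood between places 2772 and 3449 in laboratory mice and between places 5883 and 9163 in wild mice.

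Both calls were lost when some of the mice were left out. For Col1a1 the adjusted p (limma) was 0.156 without laboratory mouse 1, 0.324 without laboratory mouse 2, 0.157 without wild mouse 1 and 0.0531 without wild mouse 3. For Col3a1 it was 0.105, 0.177 and 0.178 without laboratory mouse 1, laboratory mouse 2 and wild mouse 1. The differences remained above 0 in each case but fell without wild mouse 1 to 0.52 in zFPKM for Col1a1 and 0.39 for Col3a1, and over all alternatives the adjusted p ran from 0.00303 to 0.450 for Col1a1 and from 0.00494 to 0.450 for Col3a1.

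Col1a2, the alpha2 chain that joins Col1a1 in collagen I, did not pass the test. It had 2.08, 3.42 and 2.73 FPKM in laboratory mice and 0.827, 2.25 and 2.25 FPKM in wild mice, so that laboratory mouse 1 lay just below wild mice 2 and 3. Its difference in zFPKM was 0.51 (SE 0.273, adjusted p = 0.226, limma). The chains of collagen V, which sits inside collagen I fibrils and limits their thickness, differed from each other. Col5a1 had 1.06 ± 0.338 FPKM (SD, n = 3) in laboratory and 1.38 ± 0.706 FPKM in wild mice, with overlap, and its difference changed sign between zFPKM (0.16) and log2(FPKM + 0.1) (-0.27). Col5a2 ranged from 0.446 to 0.682 FPKM in laboratory mice, whereas wild mice 1, 2 and 3 had 4.35, 4.09 and 1.02 FPKM. Wild mouse 3 thus lay nearer to the laboratory mice than to the other wild mice in Col5a2, and the difference in zFPKM did not pass (-0.56, SE 0.317, adjusted p = 0.255, limma). Col3a1 and Col5a2 are neighbours on chromosome 1, with Col5a2 at chr1:45374331-45503282.

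The bases upstream of Col3a1, which was called, and of Col1a2, its fibril partner that was not, are shown to give the 2 promoters side by side. Each is the 250 bases before the start annotated by RefSeq (GRCm38.p6), written 5′ to 3′ on the strand of the gene. Capitals mark 3 short promoter elements that were searched on both strands. The TATA box was searched as TATAAA, and the CCAAT box as the letters of its name. For the GC box the letters were GGGCGG, and matches of different elements did not overlap in the stretches printed. Col3a1 lies on the plus strand at chr1:45311288-45311537 and Col1a2 on the plus strand at chr6:4505368-4505617.
Col3a1: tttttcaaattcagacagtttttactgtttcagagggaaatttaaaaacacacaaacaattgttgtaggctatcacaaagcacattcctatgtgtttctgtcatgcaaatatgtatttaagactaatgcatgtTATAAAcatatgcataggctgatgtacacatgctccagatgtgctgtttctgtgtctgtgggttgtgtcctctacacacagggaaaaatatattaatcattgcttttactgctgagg
Col1a2: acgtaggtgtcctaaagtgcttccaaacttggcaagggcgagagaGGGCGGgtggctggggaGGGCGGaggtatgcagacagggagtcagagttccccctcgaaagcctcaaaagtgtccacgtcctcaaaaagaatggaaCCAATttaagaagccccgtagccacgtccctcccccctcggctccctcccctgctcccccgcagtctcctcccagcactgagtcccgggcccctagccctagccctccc
The Col3a1 stretch held 1 TATA box, starting at -117 from the annotated start, and neither other motif. The Col1a2 stretch held 1 CCAAT box at -109 and GC boxes at -205 and -188. Of 23 of the 34 genes that matched the promoter table, 2 held a TATA box (Col3a1 and Ecm1), 8 a CCAAT box and 15 a GC box, while of all 32851 promoters of this length, 12.4% held a TATA box, 33.8% a CCAAT box and 32.7% a GC box. These are matches of letters and describe no binding.

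None of the 8 network and other collagens was called by limma on zFPKM, and none had an unadjusted p under 0.05. Col4a1 and Col4a2, the chains of the collagen IV network of basement membranes, lie head to head on chromosome 8 (chr8:11198423-11312889 and chr8:11312805-11449287) and overlap at their starts, so that reads there could be assigned to either if strand was not used in counting. Col4a1 had 2.21 ± 0.230 FPKM in laboratory and 4.47 ± 2.05 FPKM in wild mice (SD, n = 3), with wild mouse 1 (2.24) inside the laboratory range. Col4a2 had 2.80 ± 0.222 FPKM in laboratory and 2.66 ± 1.11 FPKM in wild mice.

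The chains of collagen VI, a microfibrillar collagen that links cells to the surrounding matrix, overlapped between the groups. Col6a1 ranged from 2.32 to 3.63 FPKM in laboratory and from 1.60 to 4.35 FPKM in wild mice, Col6a2 from 0.825 to 1.42 and from 1.09 to 3.74 FPKM, and Col6a3 from 0.250 to 0.985 and from 0.249 to 0.849 FPKM. For all 3 chains wild mouse 2 was the highest wild mouse. The difference for Col6a2 changed sign between zFPKM (0.04) and log2(FPKM + 0.1) (-0.58).

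Col14a1, a fibril-associated collagen, had 2.98 to 4.13 FPKM in laboratory mice, and wild mice 1, 2 and 3 had 3.66, 14.8 and 11.1 FPKM, so that both wild females stood apart from the males. Col15a1, a basement membrane zone collagen, had 0.279 to 1.32 FPKM in laboratory and 1.71 to 3.60 FPKM in wild mice, without overlap. Col18a1, the precursor of endostatin, which hepatocytes also express, had 71.2, 94.7 and 121 FPKM in laboratory mice and 187, 250 and 278 FPKM in wild mice, 2.49 times higher on average. Its zFPKM overlapped (-0.19, SE 0.116, adjusted p = 0.295, limma), while on log2(FPKM + 0.1), relative to the median shift of all genes, it lay at -0.86.

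The small leucine-rich proteoglycans Dcn (decorin), Lum (lumican) and Bgn (biglycan) were lower in every laboratory mouse than in any wild mouse in FPKM, and none was called on zFPKM by limma, where 1 of the 3 (Dcn) had an unadjusted p under 0.05. Dcn, a regulator of fibril assembly that also binds TGF-beta, had 21.7, 32.4 and 25.6 FPKM in laboratory mice and 62.7, 112 and 77.2 FPKM in wild mice, which was 3.17 times higher on average. The difference in zFPKM was -0.31 (SE 0.138, adjusted p = 0.118, limma), and without wild mouse 1 it was -0.44 with an adjusted p of 0.0310, within a range of 0.00139 to 0.869 over all alternatives. Lum had 1.29 ± 0.230 FPKM in laboratory and 5.33 ± 0.644 FPKM in wild mice (SD, n = 3), and it did not overlap in zFPKM either (-0.47, SE 0.257, adjusted p = 0.235, limma). Bgn had 16.3 ± 2.02 and 41.6 ± 11.7 FPKM, with overlapping zFPKM. Relative to the median shift of all genes on log2(FPKM + 0.1), Dcn lay at -1.17, Lum at -1.51 and Bgn at -0.84.

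Fn1 was the gene of the 34 with the smallest adjusted p. Fibronectin joins integrins to collagen and fibrin, and in liver it is made in bulk by hepatocytes as the plasma form and in lesser amounts by stellate cells. Fn1 (chr1:71585473-71653280) had 27.8, 37.3 and 32.6 FPKM in laboratory mice and 201, 298 and 293 FPKM in wild mice. The lowest wild mouse lay above the highest laboratory mouse, and by rank Fn1 stood between places 1164 and 1290 in laboratory mice and between places 326 and 466 in wild mice. The difference in zFPKM was -0.78 (SE 0.124, adjusted p = 1.83e-08, limma), and the call was kept with each mouse left out, with adjusted p between 6.26e-07 and 0.000264. It was also kept with sex as a covariate (-0.58, adjusted p = 0.0399), a fit in which the laboratory males are in effect compared with wild mouse 1 alone. It was lost without a filter on low values (adjusted p = 0.312) and without the trend of the variance (adjusted p = 0.0740).

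The hepatocyte markers measured beside Fn1 changed in both directions. Of 10 tested, limma called 4 higher and 3 lower in laboratory mice, and 9 had an unadjusted p under 0.05. Apoa1, the main protein of high-density lipoprotein, and Apoa2 were the most strongly higher (differences in zFPKM 0.68 and 0.57, adjusted p = 3.71e-16 and 1.41e-12, limma), and Tat, tyrosine aminotransferase, and Apob, the protein of very-low-density lipoprotein, the most strongly lower (-0.70 and -0.42, adjusted p = 7.09e-09 and 0.00276). These counts changed with the scale: 1 higher and 5 lower on log2(FPKM + 0.1), and 2 and 5 after quantile normalization. Apoa1 did not pass after quantile normalization (adjusted p = 0.0996, limma), nor Apoa2 on log2(FPKM + 0.1) (adjusted p = 0.129, limma). Tat and Apob passed on both of these scales. The summed FPKM of the marker list ran from 55856 to 70269.7 in laboratory mice and from 36256 to 43415 in wild mice, with none at 0, and its part in the Fn1 result was not tested.

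Eln, elastin, had 0.875, 1.49 and 1.54 FPKM in laboratory mice and 0.410, 0.332 and 0.483 FPKM in wild mice. All laboratory mice lay above all wild mice, 3.19 times on average, and by rank as well (places 8150 to 9153 against 11949 to 12779). The difference in zFPKM did not pass (0.81, SE 0.359, adjusted p = 0.118, limma, with a range of 0.000947 to 0.450 over the alternatives). Fbn1, fibrillin of the microfibrils on which elastin is laid down, had 0.202 ± 0.0512 FPKM in laboratory and 0.240 ± 0.0893 FPKM in wild mice (SD, n = 3) with overlap, and its difference changed sign between zFPKM (0.15) and log2(FPKM + 0.1) (-0.15).

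Sparc, a collagen-binding glycoprotein, ranged from 12.6 to 17.6 FPKM in laboratory and from 15.8 to 32.3 FPKM in wild mice, with a difference of 0.01 in zFPKM and of -0.69 on log2(FPKM + 0.1). Ecm1, a secreted matrix glycoprotein abundant in healthy liver, had 74.0, 80.2 and 83.7 FPKM in laboratory mice and 85.0, 145 and 91.1 FPKM in wild mice. Its groups just failed to overlap in FPKM, wild mouse 2 stood alone at the top, and the difference in zFPKM was 0.13 (SE 0.124, adjusted p = 0.578, limma) but -0.39 on log2(FPKM + 0.1).

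Reln encodes reelin, a large secreted glycoprotein that in liver marks stellate cells. It had 1.31, 1.48 and 1.73 FPKM in laboratory mice and 3.54, 7.09 and 5.28 FPKM in wild mice, with no overlap and 3.52 times the mean in wild mice. The zFPKM overlapped, with a difference of -0.36 (SE 0.253, adjusted p = 0.394, limma). The 250 bases before its annotated start (RefSeq, GRCm38.p6, minus strand, chr5:22344706-22344955) are shown because they held 6 GC boxes (capitals), the most of the matched genes.
Reln: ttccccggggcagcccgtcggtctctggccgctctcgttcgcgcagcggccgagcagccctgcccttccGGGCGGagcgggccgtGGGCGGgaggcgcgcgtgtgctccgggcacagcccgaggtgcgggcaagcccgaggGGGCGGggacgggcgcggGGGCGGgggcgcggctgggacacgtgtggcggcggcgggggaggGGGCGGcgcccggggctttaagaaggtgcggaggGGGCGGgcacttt
The boxes began at -181, -165, -109, -91, -47 and -13 from the start.

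None of the 6 genes for proteases, inhibitors and crosslinking was called by limma on zFPKM, and none had an unadjusted p under 0.05. Timp1, the inhibitor of metalloproteases that is induced in injured liver, had 0.392, 0.314 and 0.170 FPKM in laboratory mice and 0.275, 0.561 and 0.827 FPKM in wild mice. These low levels overlapped, and the difference in zFPKM was -0.08 (SE 0.414, adjusted p = 0.933, limma). Timp2, which also takes part in the activation of pro-Mmp2, ranged from 1.21 to 2.05 FPKM in laboratory and from 2.89 to 5.62 FPKM in wild mice without overlap. Timp3, an inhibitor bound to the matrix, ranged from 1.94 to 2.34 FPKM in laboratory mice, and wild mice 1, 2 and 3 had 1.76, 5.52 and 4.41 FPKM. Timp1, Timp2 and Timp3 each overlap another gene (Syn1, Cep295nl and Syn3), and it is not stated whether counting used the strand.

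Mmp2, gelatinase A, was low in laboratory mice, with 0.0327 to 0.195 FPKM, against 0.487 to 0.828 FPKM in wild mice. The groups overlapped neither in FPKM nor in zFPKM (-0.70, SE 0.438, adjusted p = 0.326, limma). Mmp14, the membrane-bound protease that activates Mmp2, had 8.46 ± 1.77 FPKM in laboratory and 9.20 ± 1.39 FPKM in wild mice (SD, n = 3), and its difference was 0.21 in zFPKM and -0.13 on log2(FPKM + 0.1). Lox, which crosslinks collagen and elastin, had the lowest mean FPKM of the 34 genes in wild mice, and its range of 0.0658 to 0.176 FPKM in laboratory mice overlapped that of 0.0481 to 0.140 FPKM in wild mice.

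The 3 cytoskeletal genes gave no call by limma and no unadjusted p under 0.05. Acta2, smooth muscle actin, which activated stellate cells and vascular smooth muscle express, had 0.496, 0.536 and 1.18 FPKM in laboratory mice and 1.06, 1.95 and 2.71 FPKM in wild mice. Laboratory mouse 3 lay above wild mouse 1, and the difference in zFPKM was -0.22 (SE 0.323, adjusted p = 0.735, limma). Tagln, an actin-binding protein of smooth muscle, had 1.30 to 1.84 FPKM in laboratory and 3.45 to 5.36 FPKM in wild mice, without overlap in FPKM, and it overlaps Pcsk7 in the annotation. Des, desmin, an intermediate filament of muscle and of rodent stellate cells, had 1.69, 2.23 and 2.40 FPKM in laboratory mice and 1.25, 1.46 and 1.79 FPKM in wild mice. Laboratory mouse 1 lay below wild mouse 3, and the difference in zFPKM was 0.42 (SE 0.285, adjusted p = 0.381, limma). By rank, Des stood higher in every laboratory mouse (places 6952 to 7274) than in any wild mouse (places 9537 to 9794).

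Neither the retinoid storage gene nor the growth factor receptors were called by limma, with no unadjusted p under 0.05 among the 3. Lrat, the enzyme that esterifies retinol for storage in stellate cells, had 0.583, 1.16 and 1.46 FPKM in laboratory mice and 3.39, 6.34 and 2.85 FPKM in wild mice. Every wild mouse lay above every laboratory mouse, 3.93 times on average, with wild mouse 2 highest, and the zFPKM overlapped (-0.43, SE 0.276, adjusted p = 0.339, limma). Relative to the median shift of all genes on log2(FPKM + 0.1), Lrat lay at -1.41. Lrat and Reln both mark stellate cells and both had lower FPKM in every laboratory mouse, as did 43.7% of all tested genes. Both overlapped between the groups in zFPKM. Des and Pdgfrb, also genes of stellate cells, overlapped in FPKM, whereas Pdgfra did not. The upstream bases of Lrat (RefSeq, GRCm38.p6, minus strand, chr3:82903975-82904224) are shown for comparison with Reln.
Lrat: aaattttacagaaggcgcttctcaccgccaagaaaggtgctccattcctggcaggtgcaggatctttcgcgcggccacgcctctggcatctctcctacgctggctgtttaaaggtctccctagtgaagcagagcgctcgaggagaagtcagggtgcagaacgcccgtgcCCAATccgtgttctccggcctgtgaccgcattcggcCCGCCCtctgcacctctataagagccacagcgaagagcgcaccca
The Lrat stretch held 1 CCAAT box at -81 and 1 GC box, on the other strand, at -45.

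Pdgfrb, the receptor through which PDGF drives stellate cell division, had 0.837, 1.44 and 1.60 FPKM in laboratory mice and 1.07, 1.68 and 2.12 FPKM in wild mice, an overlap of most of both ranges. Its difference was 0.14 in zFPKM (SE 0.303, adjusted p = 0.834, limma) and -0.30 on log2(FPKM + 0.1). Pdgfra, the receptor typical of portal fibroblasts and also found on stellate cells, ranged from 0.221 to 0.398 FPKM in laboratory and from 0.749 to 1.37 FPKM in wild mice without overlap. In bulk liver, fewer cells of a type and less RNA per cell cannot be told apart.

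The 34 genes also varied among the mice of a group. Laboratory mouse 1 had the lowest FPKM of the 3 laboratory mice in 30 of the 34 genes, and in 57.9% of all tested genes. Among wild mice, wild mouse 2 was highest in 22 of the 34 genes, against 25.8% of all tested genes, and wild mouse 1 was lowest in 25, against 46.1%. The median FPKM over the 34 genes was 1.30, 1.89 and 1.77 in laboratory mice, against 1.71, 3.91 and 2.78 in wild mice. On this scale wild mouse 1, the male, lay inside the laboratory range and both wild females above it. Over all tested genes the median FPKM was at most 1.18 in any laboratory mouse and at least 1.56 in any wild mouse. The order differed in zFPKM, where the laboratory medians of the 34 genes spanned -0.514 to 0.040. Wild mouse 1 (-0.647) lay below that span, wild mouse 3 (-0.100) inside it and wild mouse 2 (0.211) above it. With sex as a covariate Col1a1, Col1a2 and Col3a1 were called higher (differences in zFPKM 1.45, 1.12 and 1.33, adjusted p = 0.0181, 0.0452 and 0.00785, limma) and Fn1 lower, a comparison that rests on wild mouse 1.

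**Figure D4:**
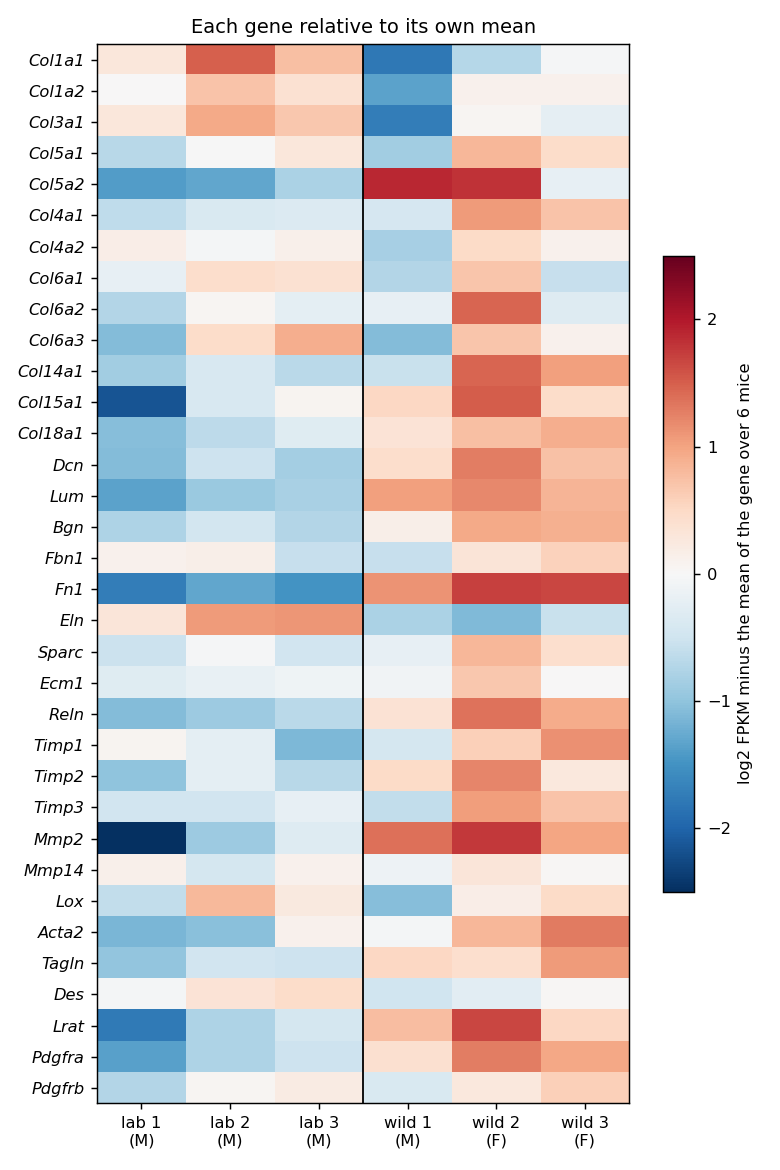
Log2 FPKM of each of the 34 genes (rows) in each mouse (columns, with sex), minus the mean of that gene over the 6 mice, on a colour scale from -2.5 (blue) to 2.5 (red). Fn1, Lum, Dcn, Reln and Lrat are blue in the 3 laboratory mice and red in the 3 wild mice, Eln shows the reverse, and the column of wild mouse 2 is red in most rows.

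Ratios of genes within a mouse do not depend on the scaling between mice. Those below were chosen after the data were seen and are described with no test. How often the ratios of other gene pairs separate the groups was not counted. In FPKM itself, 12.1% of all tested genes lay above and 43.7% below in laboratory mice without overlap. Separated ratios therefore do not set these pairs apart from other genes. Collagen I is assembled with more alpha1 than alpha2 chains, and the ratio of Col1a1 to Col1a2 FPKM was 1.10, 1.54 and 1.16 in laboratory mice, against 0.659, 0.508 and 0.824 in wild mice. The ratio of Col4a1 to Col4a2 ran the other way, 0.656, 0.905 and 0.823 in laboratory mice, against 1.52, 1.71 and 1.72 in wild mice. That of Col6a1 to Col6a2 was 2.80 ± 0.227 in laboratory and 1.38 ± 0.237 in wild mice (SD, n = 3). In all 3 pairs, chains of the same collagen, the groups did not overlap.

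In several pairs of other genes the groups were separated as well. The ratio of Col3a1 to Dcn was 0.310, 0.330 and 0.345 in laboratory mice, against 0.0264, 0.0509 and 0.0608 in wild mice, and the ratio of Fn1 to Dcn was 1.24 ± 0.0741 against 3.22 ± 0.570 (SD, n = 3). Lrat to Des was 0.491 ± 0.134 in laboratory and 2.89 ± 1.39 in wild mice. Reln to Ecm1 was 0.0189 ± 0.00156 and 0.0495 ± 0.00814. The ratio of Col5a2 to Col5a1 did not overlap either, with 0.662 in wild mouse 3 just above the highest laboratory mouse (0.642) and 7.09 in wild mouse 1. By contrast the ratio of Col3a1 to Col1a1, the genes called together, overlapped (2.58 ± 0.491 in laboratory and 3.53 ± 1.30 in wild mice).

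**Figure D5:**
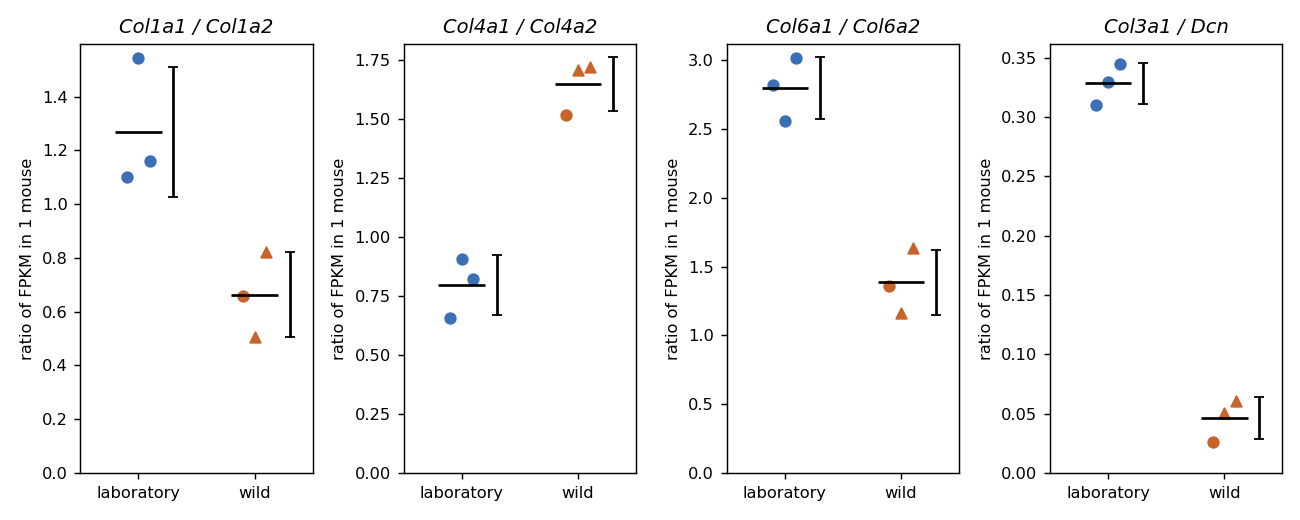
Ratio of the FPKM of 2 genes within a mouse (vertical axes from 0, 1 panel per pair) for laboratory (blue) and wild mice (orange, circle for the male, triangles for the females), with the group mean as a line and its SD as a bar (n = 3). In each of the 4 panels the points of the groups do not overlap: laboratory mice lie higher for Col1a1 / Col1a2, Col6a1 / Col6a2 and Col3a1 / Dcn, and lower for Col4a1 / Col4a2.

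Other genes of the matrix and of the cells that make it were taken from 15 lists with 233 genes, of which 209 were tested, with 7 called higher (3.35%, against 7.17% of all tested genes) and 11 lower (5.26%, against 7.28%) by limma on zFPKM. Of 24 tested markers of stellate cells and portal fibroblasts, 2 were called lower and none higher, with a median difference of 0.05 in zFPKM beside 0.0050 for all genes, and 5 had an unadjusted p under 0.05. The count was 0 without wild mouse 2 or wild mouse 3, 1 without any of the laboratory mice and 4 without wild mouse 1. The 2 were Rgs5, a regulator of G protein signalling of pericytes (-0.76, SE 0.220, adjusted p = 0.00646), and Colec10, a collectin (-0.64, SE 0.233, adjusted p = 0.0431). Rgs5 had at most 2.18 FPKM in laboratory mice and at least 10.9 FPKM in wild mice. The summed FPKM of this list ran from 99.2 to 128 in laboratory and from 156 to 267 in wild mice, and without Cxcl12, a chemokine and the highest gene of the list, from 66.4 to 95.9 and from 80.2 to 174, with overlap. None of its genes was at 0 in all mice, and its part in the values of Lrat, Reln, Dcn and the collagens was not tested.

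Of 15 other collagen chains tested, 2 were called higher in laboratory mice and none lower. Col5a3, the third chain of collagen V, had 4.63, 7.76 and 23.3 FPKM in laboratory mice and 0.153, 0.250 and 0.765 FPKM in wild mice, a difference of 1.99 in zFPKM (SE 0.285, adjusted p = 3.08e-10, limma). Col27a1, a fibrillar collagen of cartilage, had 3.80, 8.75 and 31.0 FPKM and 0.844, 0.378 and 4.42 FPKM (1.37, SE 0.236, adjusted p = 3.36e-07), and laboratory mouse 1 lay below wild mouse 3. Laboratory mouse 3 stood far above the others in both genes. In Col5a3 the groups were well separated, whereas those of Col5a1 overlapped.

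Of 19 genes for collagen processing and crosslinking, P4hb, the beta subunit of prolyl 4-hydroxylase and protein disulfide isomerase, was called lower (-0.32, SE 0.104, adjusted p = 0.0196, limma). The count of calls in this list was 0 without laboratory mouse 1, wild mouse 2 or wild mouse 3, 2 without laboratory mouse 3 and 3 without wild mouse 1. Of 17 matrix proteases and inhibitors, none was called higher, and Mmp19 was among those called lower (-1.43, SE 0.241, adjusted p = 1.65e-07). Mmp19 had 0.565, 0.855 and 0.530 FPKM in laboratory mice and 16.0, 16.0 and 21.3 FPKM in wild mice, so that the groups lay far apart. Of 19 matrix receptors, 3 were called lower: Sdc1, syndecan 1 (-0.61, adjusted p = 0.000317), Dag1, dystroglycan (-0.81, adjusted p = 0.00059), and Itgb1, the beta1 integrin shared by the collagen and fibronectin receptors (-0.45, adjusted p = 0.0416). Sdc1 had 15.3 to 21.1 FPKM in laboratory and 86.0 to 115 FPKM in wild mice.

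Limma called no gene of the other lists on matrix and its signals. At an unadjusted p under 0.05 there were 2 of 16 basement membrane genes, 4 of 16 genes for small proteoglycans and elastic fibres, and 4 of 20 genes of TGF-beta and PDGF signalling. After quantile normalization 5, 5 and 3 of them were called higher and 1, 0 and 5 lower, where 18.7% and 20.4% of all tested genes were called. Agrn, Efemp1 and Eng were the highest of these lists by mean zFPKM, with differences of 0.32, -0.22 and 0.41 (adjusted p = 0.402, 0.559 and 0.0803, limma).

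Markers of other liver cells were measured beside the 34 genes. Limma called none of the markers of smooth muscle (1 of 9 at an unadjusted p under 0.05), sinusoidal endothelium (2 of 12), Kupffer cells (1 of 10), mesothelium (1 of 8) and adipocytes (1 of 5), and their highest genes by mean zFPKM, Mylk, Clec4g, C1qa, Msln and Fabp4, differed by 0.39, 0.14, 0.23, 0.12 and 0.20. The cholangiocyte list had 1 call of 9, Spp1, osteopontin, higher in laboratory mice (0.75, SE 0.152, adjusted p = 2.98e-05), and its summed FPKM ran from 35.9 to 72.4 in laboratory and from 19.0 to 34.2 in wild mice, without overlap. Without Spp1 the sum ran from 10.1 to 19.2 and from 8.43 to 12.7, with overlap. The median difference of the 9 cholangiocyte markers was 0.52 in zFPKM, beside 0.0050 for all tested genes. After quantile normalization 5 of the 9 were called higher and 0 lower, where 18.7% and 20.4% of all tested genes were called. The summed FPKM overlapped for smooth muscle (11.0 to 23.1 and 12.0 to 16.7), endothelium (41.8 to 65.0 and 37.4 to 118), Kupffer cells (68.9 to 112 and 36.7 to 295), mesothelium (up to 2.75 and from 2.21) and adipocytes (7.89 to 11.9 and 7.22 to 14.2). Of the adipocyte list, Plin1 and Lep were listed at 0 in all 6 mice, Adipoq and Cfd in some of them, and Plin4, Cidec and Fabp4 in none. The part of these cells in the values of the 34 genes was not tested.

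The depth of the libraries is unknown, since the values are FPKM, and precision rests on 3 mice per group. Cufflinks' bounds on FPKM, given for 5 mice, had a median half-width of 13.1% of the FPKM over the 34 genes. They were narrowest for Fn1, from 2.52%, and widest for Timp1, up to 158%.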

How the data were processed

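Liver RNA of 3 laboratory and 3 wild mice was sequenced as stranded mRNA libraries. The authors mapped the reads to a masked genome with kalign, computed FPKM with the Tuxedo pipeline, and deposited 1 table for each mouse. The zFPKM deposited beside it is a score, in which log2 FPKM is centred on the mode of the mouse and divided by its SD, and it was a linear function of log2 FPKM within 0.0065. The build is GRCm38.p6, per the labels. It is not given in the sources used here whether counting used the strand.

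Of 47256 gene names listed once in every mouse, 24 with a marked failed estimate were left out. Laboratory mouse 1 has no such marks. A gene was tested if its zFPKM exceeded -3 in 3 or more of the 6 mice, and values under -3 were raised to -3. The test was limma 3.58.1 (R 4.3.3), using lmFit and eBayes with a trend, p-values were adjusted by the Benjamini-Hochberg method over all tested genes, and an adjusted p under 0.05 was called. No count test was run, as no counts were used. Counts and summaries were made in Python 3.11.15 with pandas 2.3.3 and numpy 2.4.6. The fit was tested on simulated data.

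The 34 genes and the related lists were chosen with earlier results of these data known. All 34 genes are named, with FPKM in every mouse for called genes and a fixed core (Col1a1, Col1a2, Col3a1, Dcn, Fn1, Timp1, Acta2, Des, Lrat, Reln, Ecm1 and Pdgfrb). From each list up to 2 called genes per direction are named, or else its highest by mean zFPKM. Itgb1, Cxcl12, Ttr, Plin1, Lep, Adipoq, Cfd, Plin4 and Cidec were named after their values were seen. Of the related genes called, 1 is not reported here. Promoters were matched by symbol for 23 of the 34 genes and not for Col5a2, Col1a1, Dcn, Fn1, Lum, Eln, Pdgfrb, Tagln, Mmp2, Lox and Col14a1. The alternatives were log2(FPKM + 1), log2(FPKM + 0.1) with and without centring, quantile normalization, another floor, other filters, no trend, sex as a covariate and leaving out each mouse. Chromatin assays were not analysed here.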

Additional observations from a re-analysis of the deposited data

How the results depend on the processing

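Of 503 differences of single genes among the 34 under the alternatives, 386 kept their direction and their side of the threshold, 49 passed only under the alternative, 17 no longer passed and 51 changed sign. Of 225 counts over the related lists, 127 stayed within 1.5 times the count reported and 98 did not. The causes were not tested.

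Among the 34 genes, the calls higher in laboratory mice were 2 with the settings reported, 8 on log2(FPKM + 0.1) with each mouse centred on a median of 0, 8 after quantile normalization, and 0 with a floor of -5, with no filter on low values or with no trend of the variance. The lower calls were 1, and 12 on log2(FPKM + 1), 12 on log2(FPKM + 0.1), 7 with the median set to 0, 6 after quantile normalization, and 0 with no filter or no trend. At an unadjusted p under 0.05 limma had 5 of the 34 genes with a floor of -5, 2 with no filter and 4 with no trend. By rank within the mouse, chosen after the data were seen and without a test, 8 lay higher and 8 lower with no overlap, as did 4724 and 5084 of all tested genes. Over all tested genes, 1335 higher calls became 5352 with the median set to 0, 3478 after quantile normalization, 15 with no filter and 443 with no trend, and 1355 lower calls became 6858 on log2(FPKM + 1), 7065 on log2(FPKM + 0.1), 3465 with the median set to 0, 3804 after quantile normalization, 8 with no filter, 352 with no trend and 249 with sex as a covariate. The median difference of the 34 genes was -0.03, and -0.57 on log2(FPKM + 1), -0.72 on log2(FPKM + 0.1) and 0.46 with sex as a covariate.

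With 1 mouse left out at a time, the 34 genes gave 0 to 2 higher and 1 to 2 lower calls, and all tested genes 556 to 1917 higher and 488 to 1649 lower calls. Higher calls among the 34 were 0 without laboratory mouse 1, laboratory mouse 2 or wild mouse 1, and 1 without wild mouse 3. Differences that changed sign ran from -0.15 to 0.40 for Col5a1, -0.18 to 0.34 for Col6a2, -0.14 to 0.51 for Fbn1, -0.17 to 0.15 for Sparc, -0.012 to 0.61 for Lox, -0.093 to 0.27 for Pdgfrb, -0.33 to 0.14 for Col4a1, -0.39 to 0.31 for Timp1, -0.30 to 0.20 for Timp3 and -0.50 to 0.030 for Col14a1. None of these genes passed the test with the settings reported.

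On log2(FPKM + 1) and log2(FPKM + 0.1) the sign turned for Col5a1 (-0.18 and -0.27), Col6a2 (-0.40 and -0.58), Fbn1 (-0.043 and -0.15), Sparc (-0.66 and -0.69), Ecm1 (-0.39 and -0.39), Mmp14 (-0.12 and -0.13) and Pdgfrb (-0.19 and -0.30). After that centring it turned for Timp1 (0.055) and Timp3 (0.0015), and after quantile normalization for Timp3 (0.031). With sex as a covariate it turned for Col4a1 (0.48), Col14a1 (0.44), Col15a1 (0.045), Col18a1 (0.0028), Bgn (0.13), Reln (0.044), Timp1 (0.54), Timp2 (0.078), Timp3 (0.58), Acta2 (0.31), Tagln (0.065) and Pdgfra (0.085).

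No paired analysis was run, because the laboratory and wild mice were different animals and nothing in the design pairs them. The 3 mice per group and an unknown depth limit what can be detected: a difference that missed the threshold does not show equal levels. Sex, housing and origin cannot be told apart.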
